A study of Mus musculus with 32 samples.

Results

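The 43 genes described here encode the machinery that holds and moves chromosomes in mitosis. They comprise the kinetochore and centromere, the spindle checkpoint, the chromosomal passenger complex and the cohesin ring. They were taken by symbol from a list, and all 43 were found among the 29511 genes of the count table. Transcript levels were measured by mRNA-seq in 32 tissues from young virgin female FVB/N mice (6 to 8 weeks old), either wildtype (WT) or carrying a whole-body knockout of Clic4 (KO), which encodes a chloride intracellular channel protein. 6DT1 mouse mammary tumor cells, a line that keeps Clic4 in both hosts, had been injected into the fourth mammary fat pad. Primary tumors were collected 14 days later from 6 KO and 6 WT hosts. Pre-metastatic lungs of the same time point came from 6 KO and 6 WT hosts, and control lungs came at baseline from 4 KO and 4 WT mice without a tumor. KO and WT mice were littermates of the same strain, and the labels do not tie a lung to a tumor of the same animal.

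The kinetochore is the protein assembly that joins each chromosome to spindle microtubules. It is built on centromeric chromatin marked by the histone variant CENP-A, and its outer layer, including the NDC80 complex, binds the microtubules. The spindle checkpoint delays anaphase until all kinetochores are attached, and the chromosomal passenger complex releases faulty attachments. Cohesin holds sister chromatids together until anaphase and also folds interphase chromosomes into loops, so its core subunits are made in resting cells too. Many kinetochore and checkpoint genes are transcribed mainly in G2 and mitosis and are widely used as readouts of proliferation.

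Many genes of this kind share promoter elements, among them the cell cycle genes homology region (TTTGAA or TTTAAA) and the CCAAT box. Promoter windows from RefSeq (GRCm38.p6, from 250 bases before to 50 bases after the annotated start) were matched for 37 of the 43 genes. The letters TTTGAA were present on either strand in 16 of the 37 windows (43.2%), against 20.2% of all 27025 genes with a window. TTTAAA was present in 10 (27.0%, against 14.9%), and CCAAT in 23 (62.2%, against 41.1%). The E2F-type letters TTTGGCGC were found in 3 (8.11%, against 0.585%) and TTTCGCGC in 0 (0.374% of all genes). A match of letters is a description of the window and not evidence of a factor bound there. The following 4 windows belong to the genes with TTTGAA that had the smallest p-values between tumor and lung, and show where the letters lie around the start. Sequences run 5′ to 3′ along the gene, and capitals mark TTTGAA and CCAAT, or their reverse complements TTCAAA and ATTGG.
Kif2c, chr4:117178723-117179022, minus strand: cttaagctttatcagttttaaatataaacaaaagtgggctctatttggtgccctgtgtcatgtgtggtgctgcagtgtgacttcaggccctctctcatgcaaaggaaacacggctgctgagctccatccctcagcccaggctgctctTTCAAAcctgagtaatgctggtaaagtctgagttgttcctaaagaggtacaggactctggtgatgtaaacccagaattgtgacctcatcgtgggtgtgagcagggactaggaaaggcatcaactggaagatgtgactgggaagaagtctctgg
Bub1b, chr2:118597961-118598260, plus strand: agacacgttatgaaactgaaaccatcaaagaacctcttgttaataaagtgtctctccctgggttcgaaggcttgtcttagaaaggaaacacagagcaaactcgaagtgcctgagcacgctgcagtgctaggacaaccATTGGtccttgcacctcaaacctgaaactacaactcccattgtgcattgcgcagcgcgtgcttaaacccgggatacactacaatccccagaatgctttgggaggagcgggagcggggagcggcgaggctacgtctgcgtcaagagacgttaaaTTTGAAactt
Cenpa, chr5:30666636-30666935, plus strand: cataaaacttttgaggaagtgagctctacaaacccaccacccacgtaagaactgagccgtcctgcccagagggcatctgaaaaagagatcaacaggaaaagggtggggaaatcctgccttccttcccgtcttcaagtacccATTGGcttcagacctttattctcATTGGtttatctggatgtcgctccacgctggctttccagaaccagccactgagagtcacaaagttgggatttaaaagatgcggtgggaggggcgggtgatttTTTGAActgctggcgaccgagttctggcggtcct
Plk1, chr7:122159185-122159484, plus strand: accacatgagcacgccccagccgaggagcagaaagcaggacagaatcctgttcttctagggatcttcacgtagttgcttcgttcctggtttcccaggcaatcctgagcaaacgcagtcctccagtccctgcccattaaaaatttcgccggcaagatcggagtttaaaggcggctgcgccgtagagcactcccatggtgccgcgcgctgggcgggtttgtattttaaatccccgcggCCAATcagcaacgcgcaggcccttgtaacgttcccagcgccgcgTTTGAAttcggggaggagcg
The Kif2c window lies inside the gene as GENCODE M21 draws it, which runs to 117182639. In Kif2c the element began 103 bases before the RefSeq start and on the opposite strand. In Bub1b, Cenpa and Plk1 it began 40, 16 and 30 bases after the start, on the coding strand, with at least 1 CCAAT box upstream. The CCAAT boxes began 113 bases before the start in Bub1b, 109 and 86 bases before it in Cenpa, and 14 bases before it in Plk1.

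Libraries held 4446323 to 8318711 estimated counts (median 5384934), of which 3 abundant small RNA genes (Rn7s1, Rn7s2 and Rn7sk) took 8.33% to 14.1%. The mean share was 10.7% in WT control and 9.45% in WT 14-day lungs, and 9.58% and 10.0% in the KO lungs. In tumors it was 11.4% in KO and 10.4% in WT hosts. The same 3 genes took 58.1% to 70.2% of summed FPKM (fragments scaled to transcript length and library size) in tumors (median 63.1%) and 61.8% to 70.0% in lungs (median 65.8%). FPKM below therefore describe levels, while fold changes and tests rest on counts. As a measure of the effect, the median ratio of mean FPKM between WT tumors and WT 14-day lungs over the 43 genes was 4.81 as deposited, and 4.16 when rescaled without those genes. No pair of replicates agreed within sampling noise. Clic4 reads outside the deleted part can remain in KO tissue, so its level is only a partial check of the labels. It lay at 210 to 258 CPM (counts scaled to library size) in the 4 KO control lungs and at 625 to 675 in the 4 WT control lungs. At 14 days it ranged from 225 to 287 CPM in KO lungs and from 603 to 882 in WT lungs, again without overlap. In tumors, where the grafted cells carry the gene, it ranged from 244 to 273 CPM in KO and from 287 to 314 in WT hosts. Summed lung epithelial markers were near 0 in tumors (0.435 to 3.40 CPM). Among the control lungs, WT replicates 1 and 2 were high in some of the mitotic genes, as given with the lung values.

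The genes were first placed by their level in tumor and lung. The tumors carried far more transcript of the mitotic genes than the 14-day lungs of the same host genotype. Core subunits of cohesin (Smc1a, Smc3, Rad21, Stag1 and Stag2) differed less, and in either direction. Their ratio of mean FPKM, tumor over lung, ran from 0.721 (Stag2) to 1.35 (Rad21) in WT hosts. In KO hosts it ran from 0.649 to 1.25 for the same genes. Of the 43 genes, 35 had enough counts in lungs to pass the filter there. In WT hosts 32 of these 35 were higher in tumor, 2 were lower (Zw10 and Stag2), and 1 did not pass the test (Smc1a), at a false discovery rate (FDR) of 0.05 by edgeR's quasi-likelihood test. The background was wide, as 75.9% of all 16825 genes tested were called between these tissues, and 37.5% were called higher in tumor. The median log2 fold change of the 35 genes was 1.86, against -0.0045 over all genes. In KO hosts 30 of the 35 were higher, 2 lower and 3 not called (Smc1a, Smc3 and Stag1), with a median of 1.54 against 0.0103 for all genes. There 74.4% of all genes were called, and 37.2% were called higher. The other 8 genes (Cdca8, Ttk, Plk1, Cenph, Cenpk, Cenpm, Cenpp and Cdca5) had 0 to 17 counts per lung. They passed the filter only through the tumors, where they were high, so that their higher calls are no separate support and their fold changes rest on few lung reads. In CPM, 27 of the 35 genes were higher in every tumor than in every 14-day lung of the same genotype, in WT as in KO hosts, while 26.6% of all genes were in WT and 25.7% in KO hosts. Bulk tissue cannot tell fewer cycling cells from less transcript per cell.

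**Figure D1:**
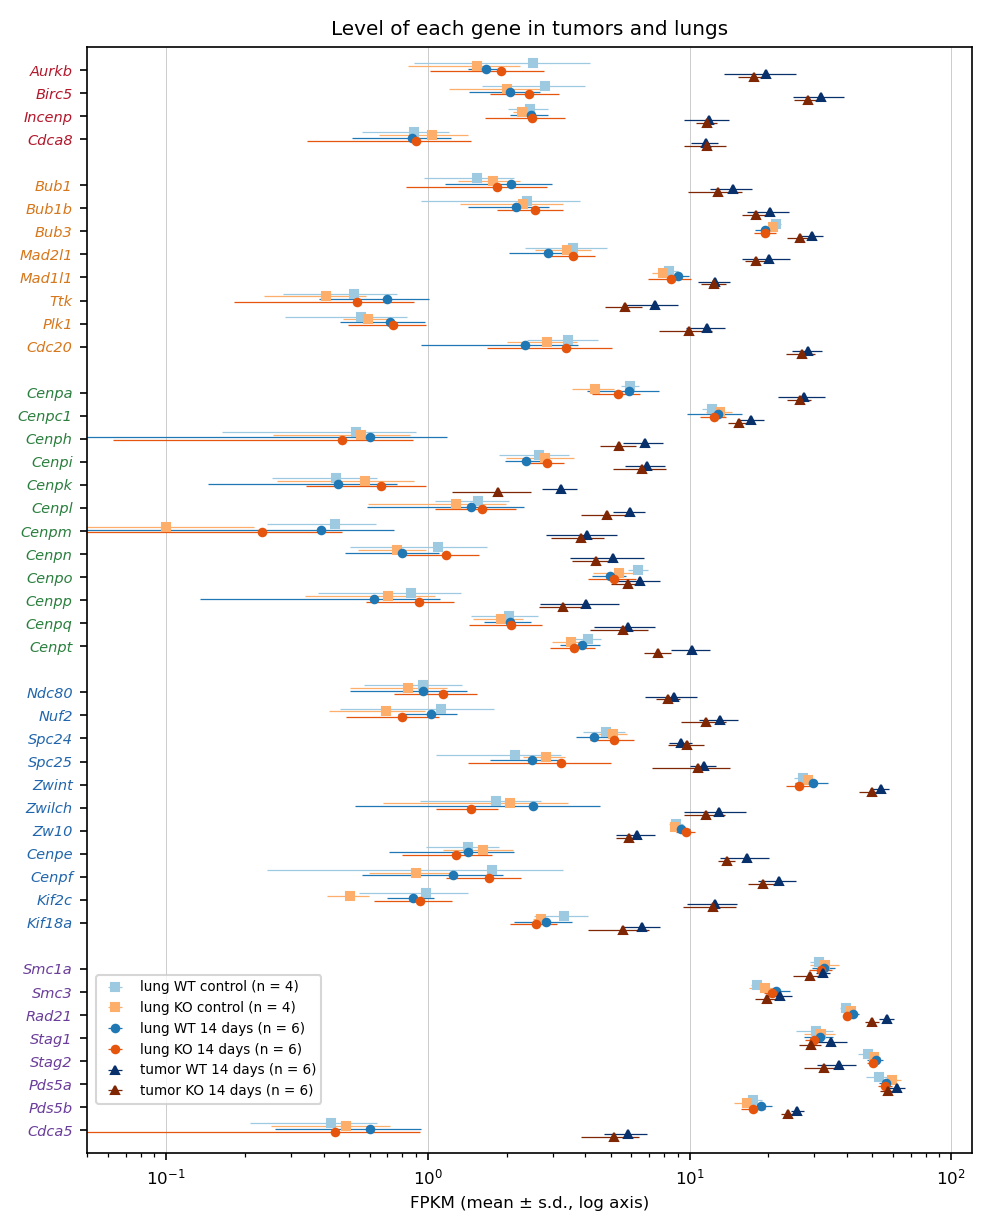
Mean ± s.d. of the deposited FPKM of each of the 43 genes, on a log axis, in WT and KO control lungs (squares, n = 4 each), 14-day lungs (circles, n = 6 each) and tumors (triangles, n = 6 each). Names are coloured by role, and bars that reach below 0.05 FPKM run off the axis. Tumor symbols lie well to the right of lung symbols for most genes outside cohesin, while Zw10 and Stag2 lie to the left.

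By role, medians are given over the members that passed the filter in lungs too. In the chromosomal passenger complex the median log2 fold change of these 3 genes was 3.68 in WT and 3.40 in KO hosts. Birc5, the complex's survivin subunit, averaged 31.9 ± 6.99 FPKM in WT tumors and 2.06 ± 0.62 in WT 14-day lungs (mean ± s.d., n = 6 each). Its log2 fold change was 3.69 with a standard error (SE) of 0.17 in WT and 3.53 (SE 0.17) in KO hosts. Aurkb, the kinase of the complex, averaged 19.5 ± 5.92 FPKM in WT tumors and 1.67 ± 0.25 in WT 14-day lungs. The scaffold Incenp was the least different of the 4, with log2 fold changes of 2.32 in WT and 2.28 in KO hosts. Cdca8 (borealin), with 4 to 17 counts per lung, stood at 3.76 and 3.61, and part of its exons lies over a gene on the other strand.

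Of the 8 checkpoint genes, Ttk and Plk1 passed the filter through tumors only. The other 6 were called higher in tumors of both hosts, with medians of 3.05 in WT and 2.74 in KO. The checkpoint kinase Bub1 averaged 14.6 ± 2.7 FPKM in WT tumors against 2.07 ± 0.91 in WT 14-day lungs, a log2 fold change of 3.51 (SE 0.17). Its relative Bub1b (3.47) and the anaphase inhibitor Mad2l1 (2.62) followed in WT hosts, and in KO hosts the 3 genes stood at 3.19, 3.21 and 2.31. Plk1, the Polo kinase, averaged 11.7 ± 1.96 FPKM in WT tumors against 0.72 ± 0.26 in WT 14-day lungs, where it had only 6 to 13 counts per library. Bub3, which carries Bub1 and Bub1b to the kinetochore, was already plentiful in lung, at 19.3 ± 1.60 FPKM against 29.4 ± 2.90 in WT tumors.

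Of the 12 centromere genes, 4 passed the filter through tumors only. The other 8 were called higher in both hosts, with medians of 1.70 in WT and 1.36 in KO. Cenpa itself averaged 27.3 ± 5.60 FPKM in WT tumors and 5.86 ± 1.80 in WT 14-day lungs (log2 fold change 2.36, SE 0.12). Cenpn, a reader of the CENP-A nucleosome, had log2 fold changes of 2.74 in WT and 1.96 in KO hosts, and Cenpi and Cenpt, of the constitutive centromere network, 1.54 and 1.45 in WT. Cenph, Cenpl and Cenpm, among the leading genes of the role in KO hosts, stood at 3.47, 2.07 and 3.94 there. In lungs Cenph, Cenpk, Cenpm and Cenpp had at most 11 counts per library.

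The outer kinetochore and its motors, all 11 of which passed in lungs too, had medians of 3.14 in WT and 2.93 in KO hosts and held the most different gene of the list. Cenpf, a large kinetochore protein made in G2, averaged 21.9 ± 3.58 FPKM in WT tumors against 1.25 ± 0.69 in WT 14-day lungs, and its log2 fold change was 4.42 (SE 0.25) in WT and 4.07 (SE 0.25) in KO hosts. The motor Cenpe (4.08), the microtubule depolymerase Kif2c (3.82) and the NDC80 subunit Nuf2 (3.89) were close behind in WT hosts, with 3.83, 3.90 and 3.91 in KO hosts. Zw10, which also serves in membrane traffic between Golgi and endoplasmic reticulum, went the other way, with 6.31 ± 1.09 FPKM in WT tumors and 9.26 ± 0.78 in WT 14-day lungs. Zwint, which binds the outer plate, was the most abundant kinetochore gene of lung, at 29.6 ± 4.31 FPKM against 53.7 ± 3.86 in WT tumors.

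Cohesin had the smallest medians, 0.14 in WT and 0.014 in KO hosts, over the 7 of its 8 genes that passed in lungs too. Rad21, the cleavable ring subunit, averaged 56.8 ± 3.81 FPKM in WT tumors and 42.2 ± 2.10 in WT 14-day lungs, a log2 fold change of 0.49 (SE 0.041), and in CPM it was higher in every tumor than in every 14-day lung of its genotype. Stag2, an X-linked subunit, was lower in tumors, at 37.1 ± 6.33 against 51.4 ± 3.58 FPKM in WT hosts (log2 fold change -0.37, SE 0.049, in WT and -0.50, SE 0.050, in KO hosts). In CPM it did not overlap between tumors and 14-day lungs of the same genotype, but the share of all genes lower in this way was not counted. In FPKM the WT tumors reached 47.7 and the WT 14-day lungs began at 47.2. Pds5b, a regulator of the ring, showed 0.58 in WT and 0.60 in KO hosts. Smc1a had 32.4 ± 2.03 FPKM in WT tumors and 32.8 ± 3.29 in WT 14-day lungs, and the log2 fold change from counts was -0.0091 (SE 0.068). Cdca5 (sororin), which stabilises cohesion only after replication, passed the filter through tumors only. It averaged 5.80 ± 1.10 FPKM in WT tumors and 0.60 ± 0.34 in WT 14-day lungs, with 1 to 12 counts per lung.

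Other cell cycle genes, listed by process, were read in the same way. Counts are over the genes that passed the filter in lungs too. In WT hosts 75.9% of all genes were called in either direction, and 37.5% were called higher in tumors. In WT hosts 26 of 26 mitotic cyclins, kinases and spindle motors were higher in tumor, among them Anln (4.32) and Ccna2 (3.76). So were 17 of 18 further kinetochore genes, including the CENP-A chaperone Hjurp (2.51), and 8 of 8 condensin subunits, including Ncapg (3.80). Of 30 replication genes 29 were higher, with Mcm2 at 2.61, and of 15 subunits or partners of the anaphase-promoting complex 12 were higher, with Ube2c at 3.80. Genes that load, release or cleave cohesin split evenly, with 4 higher, including Espl1 (separase, 3.02) and Esco2 (3.54), and 4 lower. Of 12 cell cycle inhibitors 4 were higher and 6 lower, among the latter Cdkn1c (-4.38) and Rb1 (-0.97). Against the share of all genes called, the splits of the cohesin and inhibitor lists are description only.

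The second question was whether the host's genotype altered these genes in the tumor. None of the 43 genes passed an FDR of 0.05 in tumors of KO against WT hosts by edgeR, nor by DESeq2, and 2.51% of all 13830 genes tested did. At an unadjusted p under 0.05 there were 6 by edgeR (13.95%, against 15.5% of all genes) and 5 by DESeq2. The estimates nevertheless lay mostly on one side, as 40 of 43 were below 0, against 52.3% of all genes, with a median log2 fold change of -0.11 against -0.0098 over all genes. All were measured in the same 12 tumors, so these estimates are not independent of each other. The 3 estimates above 0 were Incenp (0.015), Cenpo (0.035) and Spc24 (0.12). By role the medians were -0.017 for the passenger complex, -0.15 for the checkpoint, -0.14 for the centromere, -0.097 for the outer kinetochore and -0.13 for cohesin.

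**Figure D2:**
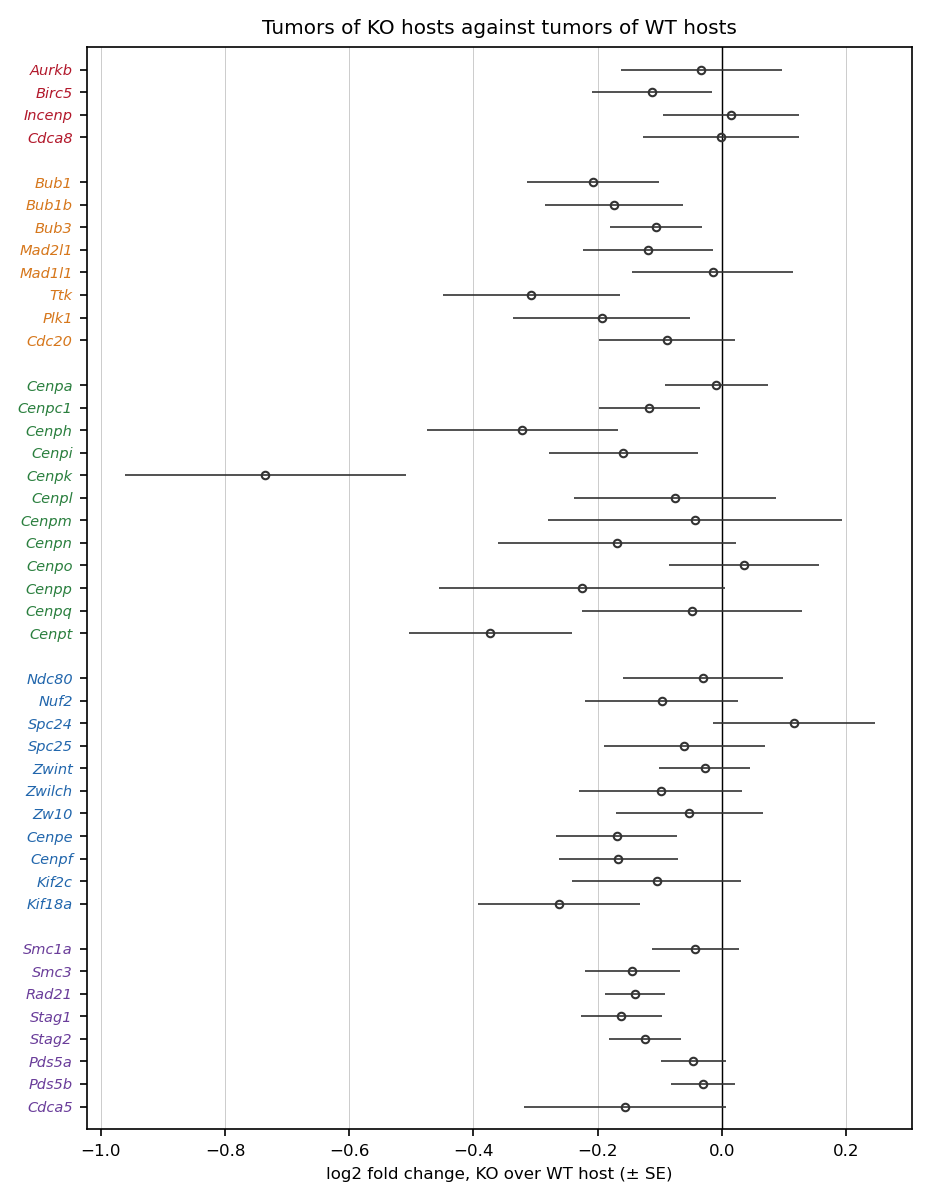
Log2 fold change of each of the 43 genes in tumors of KO hosts over tumors of WT hosts (n = 6 each), with SE. Gene names are coloured by role. Most points lie just left of 0, and none passed an FDR of 0.05.

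In each role the gene with the smallest p is given in full. Cenpk, a subunit of the constitutive centromere network (chromosome 13, 104228611 to 104252392, GRCm38), ranged from 1.40 to 3.05 CPM in KO hosts (median 1.68) and from 2.62 to 3.85 in WT hosts (median 3.50). The groups overlapped, and the log2 fold change was -0.74 (SE 0.23, edgeR FDR 0.117) with a 95% interval of 0.430 to 0.839 as a ratio of KO over WT. Part of the Cenpk exons lies over Ppwd1 on the other strand, and the strand setting of the counting is not given in the sources used here.

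Rad21 (chromosome 15, 51962240 to 51991747, GRCm38) was the only gene of the list whose CPM did not overlap, being lower in every KO tumor, as were 0.463% of all genes. It ranged from 166 to 180 CPM in KO hosts (median 175) and from 180 to 203 in WT hosts (median 189), the highest KO value lying at 179.7 and the lowest WT value at 180.3. The log2 fold change was -0.14 (SE 0.048, edgeR FDR 0.164), with an interval of 0.846 to 0.974 as a ratio.

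The checkpoint kinase Ttk (MPS1) ranged from 10.8 to 16.8 CPM in KO hosts (median 14.9) and from 13.3 to 23.1 in WT hosts (median 18.2), with overlap. Its log2 fold change was -0.31 (SE 0.14, edgeR FDR 0.321). Kif18a, a kinesin that limits chromosome oscillation, ranged from 13.8 to 20.9 CPM in KO hosts (median 15.9) and from 16.1 to 24.3 in WT hosts (median 21.2), also with overlap, at -0.26 (SE 0.13, edgeR FDR 0.360). Birc5, of the passenger complex, had 23.6 to 27.2 CPM in KO hosts (median 26.1) and 22.5 to 34.3 in WT hosts (median 27.7). Its ratio of 0.925 had a 95% interval of 0.802 to 1.07 (edgeR FDR 0.627).

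CPM summed over the members of a role placed the hosts side by side. The passenger complex summed to 103 ± 6.15 CPM in KO and 105 ± 15.3 in WT tumors, and the checkpoint to 275 ± 19.1 and 303 ± 37.5 (mean ± s.d., n = 6 each). The centromere summed to 159 ± 8.53 and 173 ± 14.9, the outer kinetochore to 493 ± 32.6 and 537 ± 51.1, and cohesin to 969 ± 40.7 and 1036 ± 43.8. KO means were the lower in every role, and the groups overlapped in every role. WT tumor replicate 6 had the lowest sum of the WT tumors in all 5 roles, and WT tumor replicate 1 the highest in 4. Without replicate 6 the median log2 fold change was -0.15, with 1 gene called (Cenpt), where 3.49% of all genes were, and 12 at an unadjusted p under 0.05 (27.9%, against 17.8% of all genes). Without replicate 1 it was -0.064, with 34 estimates below 0.

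**Figure D3:**
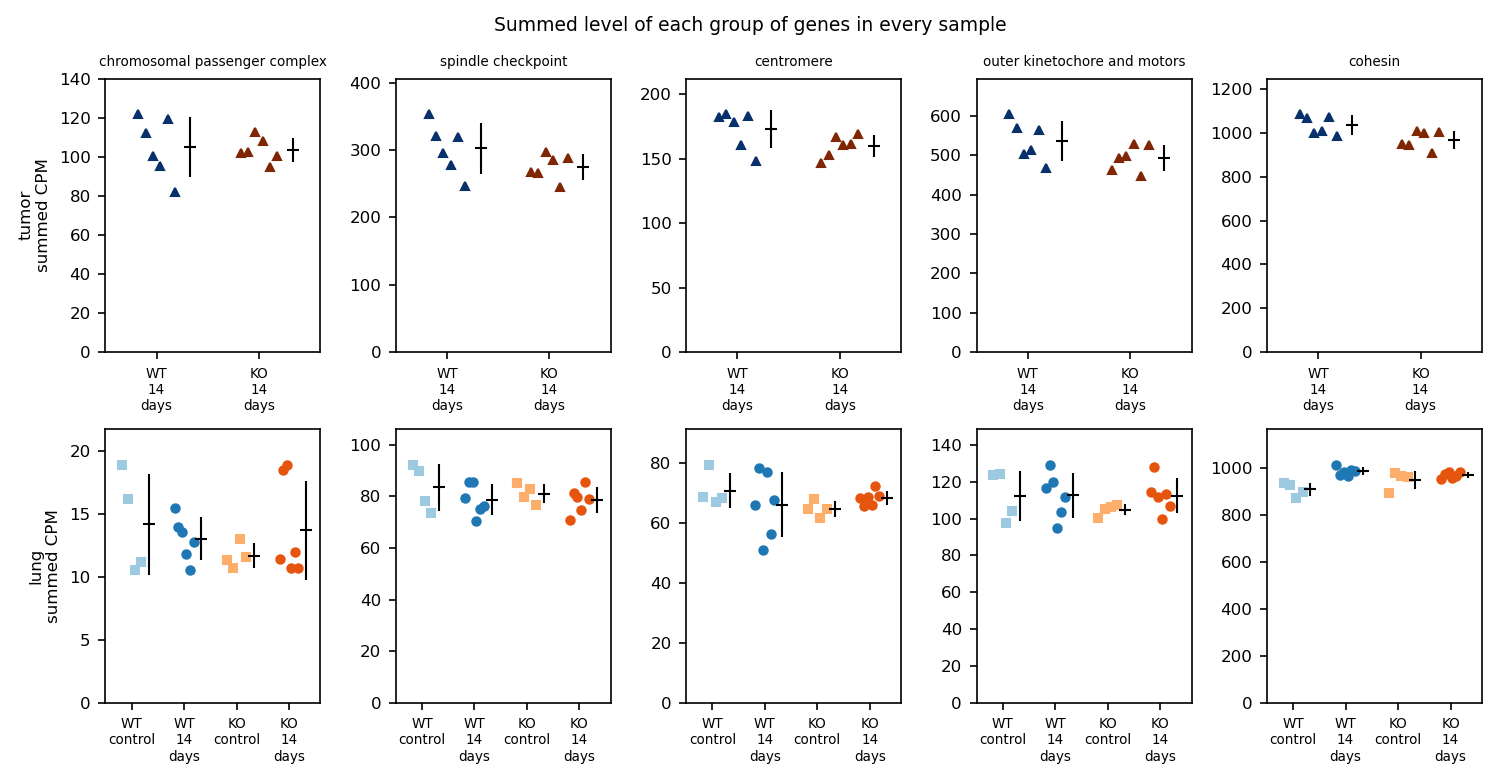
CPM summed over the members of each role in each of the 12 tumors and 20 lungs, with the mean ± s.d. of each group. CPM were scaled within each tissue, and each panel has its own axis from 0. KO and WT tumors overlap in every role, and cohesin sums of WT control lungs lie below those of WT 14-day lungs.

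Estimates of other cell cycle lists also lay mostly below 0 in the tumors, with 0 genes called by edgeR at an FDR of 0.05. These were 19 of 24 further kinetochore genes, 7 of 8 condensin subunits, 13 of 15 genes of the anaphase-promoting complex, 22 of 27 mitotic cyclins, kinases and motors, and 25 of 32 replication genes. Of 10 cell cycle inhibitors tested, 8 had estimates above 0. Most lists of host cell markers had estimates above 0. T cell markers were above 0 in 5 of 5 genes tested, with 2 called (Cd3d and Cd3g), and their sum ranged from 22.6 to 41.4 CPM in KO and from 8.49 to 32.4 in WT hosts. NK and cytotoxic cell markers were above 0 in 6 of 6, with 1 called (Nkg7), and summed to 36.4 to 64.8 CPM in KO and 19.1 to 61.8 in WT hosts. Macrophage and monocyte markers were above 0 in 6 of 6, with 0 called and sums of 777 to 1409 CPM in KO and 459 to 1065 in WT hosts. Mammary fat markers were above 0 in 4 of 4, with 0 called, 3 at an unadjusted p under 0.05 and sums of 83.1 to 337 CPM in KO and 75.0 to 143 in WT hosts. Fibroblast markers were above 0 in 5 of 5, with 0 called and sums of 4122 to 9828 CPM in KO and 3898 to 8200 in WT hosts. Epithelial markers were divided, with Epcam, Krt19 and Cdh1 above 0, the abundant keratins Krt8 and Krt18 below 0, a median log2 fold change of 0.34, 0 called and sums of 467 to 558 CPM in KO and 511 to 665 in WT hosts. The part of these cells in the values of the 43 genes was not tested.

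The third question was whether a distant tumor changed these genes in the lung before metastasis. Of the 43 genes, 8 had too few counts to be tested in lungs (Cdca8, Ttk, Plk1, Cenph, Cenpk, Cenpm, Cenpp and Cdca5, with 0 to 17 counts per lung). Differences in lungs were called at an FDR of 0.25 by edgeR. In WT mice 3 of the 35 tested genes were called, all subunits or regulators of cohesin and all higher at 14 days, namely Smc3, Stag2 and Pds5a. The background was 2.33% of all 16029 genes, with 1.18% called higher. None of the kinetochore, checkpoint or passenger genes was called. In all, 23 of the 35 estimates were below 0, with a median of -0.077 against 0.0032 over all genes, and 5 genes had an unadjusted p under 0.05 (14.3%, against 11.8% of all genes). DESeq2 called the same 3 genes.

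**Figure D4:**
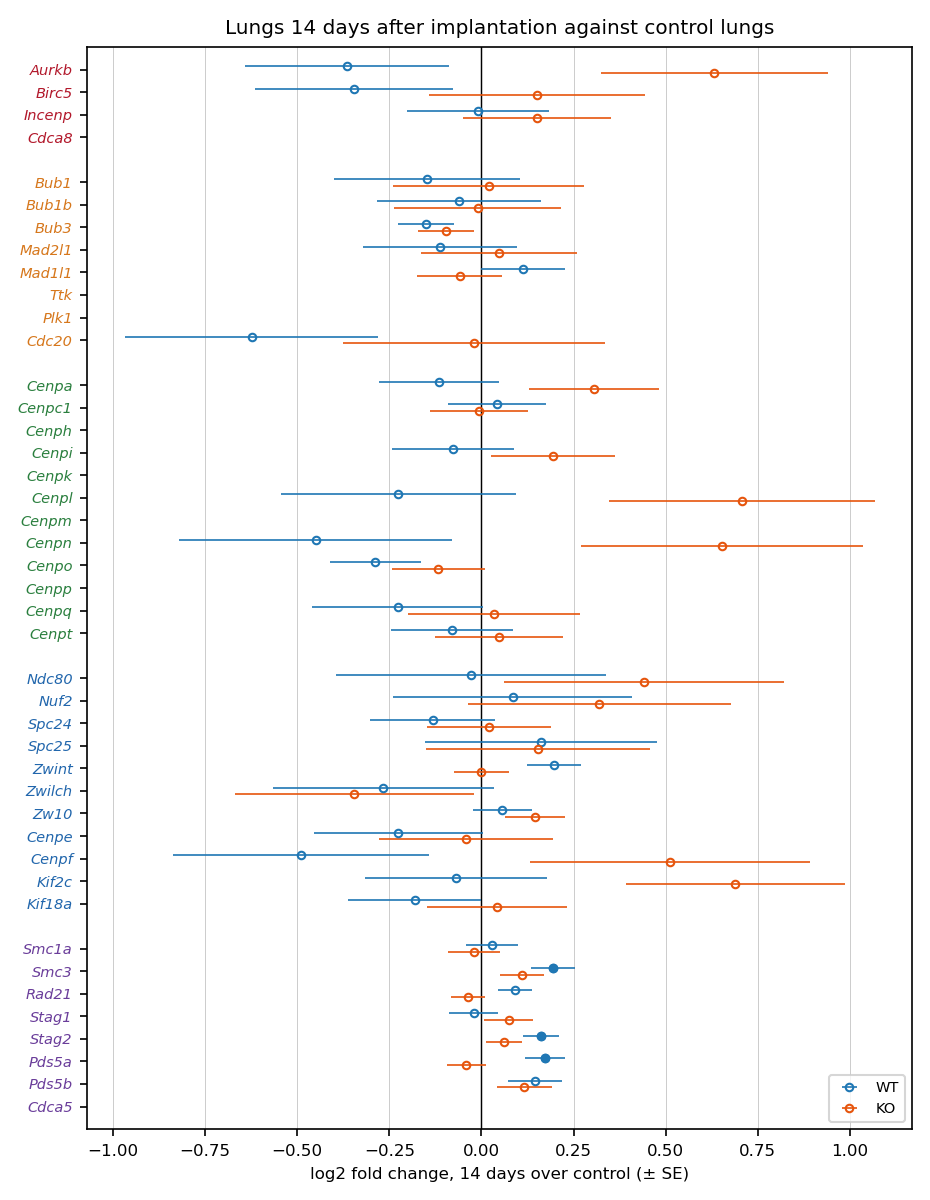
Log2 fold change (± SE) of 14-day lungs over control lungs in WT and KO mice (n = 6 and 4 in each genotype), for the 35 genes tested; 8 genes are left blank. Filled symbols mark the 3 genes called at an FDR of 0.25, which are Smc3, Stag2 and Pds5a in WT mice, and bars are wide for the mitotic genes, whose lung counts are low.

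Smc3, of the cohesin ring (chromosome 19, 53600398 to 53645833, GRCm38), stood at 73.7, 75.7, 79.6 and 75.2 CPM in WT control lungs 1 to 4. In WT 14-day lungs it ranged from 79.1 to 91.6 CPM (median 87.8). Only control 3 reached into the 14-day range, and the log2 fold change was 0.19 (SE 0.059, edgeR FDR 0.209).

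Stag2 (chromosome X, 42149317 to 42277185, GRCm38) stood at 226.7, 223.7, 218.7 and 227.1 CPM in the WT controls and ranged from 230 to 262 (median 255) at 14 days. The groups did not overlap, as in 1.63% of all genes in that direction, and the log2 fold change was 0.16 (SE 0.049, edgeR FDR 0.209). Part of the Stag2 and Pds5a exons lies over genes on the other strand.

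Pds5a (chromosome 5, 65605721 to 65698273, GRCm38), which aids loading and release of the ring, stood at 180.6, 170.6, 145.9 and 162.6 CPM in the WT controls and ranged from 182 to 192 (median 186) at 14 days. All 14-day lungs were higher, and the log2 fold change was 0.17 (SE 0.053, edgeR FDR 0.216). The sum over cohesin genes did not overlap in WT mice, with 873 to 939 CPM in controls and 968 to 1014 at 14 days. It contains these 3 genes in the same lungs, so it is no separate support. None of the 3 passed at an FDR of 0.05. The calls also rested on single libraries, as 0 genes were called without WT 14-day replicate 1, 4 or 5 or without WT control 2, 3 or 4, and 1 without WT 14-day replicate 6 or WT control 1. GC offsets, which adjust each library for the base composition of genes, left 0 called, with log2 fold changes of 0.11 (SE 0.064) for Smc3, 0.084 (SE 0.046) for Stag2 and 0.096 (SE 0.052) for Pds5a, and 3 of the 35 genes at an unadjusted p under 0.05 (8.57%, against 9.55% of all genes).

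In KO mice none of the 35 genes was called by edgeR or DESeq2, while 1.05% of all genes were by edgeR, and 1 gene had an unadjusted p under 0.05 by edgeR (Kif2c, log2 fold change 0.69, SE 0.30), as did 8.64% of all genes. Here 23 of 35 estimates were above 0, with a median of 0.048 against 0.0039 over all genes. Smc3 stood at 81.0, 74.6, 84.2 and 77.5 CPM in KO controls and ranged from 80.9 to 97.7 (median 83.7) at 14 days. Stag2 stood at 218.5, 249.9, 244.9 and 245.5 CPM and ranged from 240 to 264 (median 249) at 14 days. Pds5a stood at 165.8, 194.6, 187.0 and 189.4 CPM and ranged from 173 to 186 (median 179) at 14 days. All 3 overlapped between controls and 14-day lungs, with log2 fold changes of 0.11, 0.062 and -0.041. Aurkb and Kif2c did not overlap in KO mice, both higher at 14 days, against 1.35% of all genes.

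With both genotypes averaged, 2 of the 35 genes were called, both higher, namely Smc3 (log2 fold change 0.15, SE 0.042, edgeR FDR 0.127) and Stag2 (0.11, SE 0.035, edgeR FDR 0.174). The background was 4.80% of all genes, with 2.48% called higher. Smc3 alone was called without KO control 1 or without WT control 3, and 0 genes were without WT controls 1 and 2 together. The interaction of tumor and genotype called 0 of the 35 genes by edgeR or DESeq2, against 0.0499% of all genes, with 2 at an unadjusted p under 0.05 by edgeR (5.71%, against 8.53% of all genes). These were Pds5a (-0.21, SE 0.075) and Aurkb (1.00, SE 0.41). Without WT controls 1 and 2 Aurkb went to 0.26 (SE 0.43) and Pds5a to -0.30 (SE 0.077, edgeR FDR 0.540). The effects of the tumor in WT and in KO lungs were therefore not shown to differ for any of these genes.

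The KO and WT lungs were also compared with each other. At 14 days 0 of the 35 genes were called by edgeR or DESeq2, and 0 had an unadjusted p under 0.05 by edgeR (8.34% of all genes), with 0.861% of all genes called. In control lungs edgeR called 0, with 0.973% of all genes called, and DESeq2 called 1 (Pds5a, higher in KO). There 6 genes had an unadjusted p under 0.05 by edgeR (17.1%, against 11.6% of all genes), namely Kif2c, Cenpa, Cenpl, Aurkb and Cenpf, lower in KO, and Pds5a, higher in KO. EdgeR called Pds5a without KO control 1 and Kif2c without WT control 4. Kif2c had the smallest FDR of these (log2 fold change -0.95, SE 0.31, edgeR FDR 0.272). Kif2c, Cenpa and Cenpl were lower in every KO control than in every WT control, as were 3.78% of all genes. These comparisons use the same WT control lungs as those of tumor state.

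The mitotic genes of the WT controls were uneven, and the values of each lung show it. Cenpf stood at 22.4, 21.1, 4.72 and 6.80 CPM in WT controls 1 to 4, against 7.09, 9.74, 7.58 and 7.02 in KO controls. Aurkb stood at 3.74, 3.46, 1.13 and 1.94 CPM in WT and at 1.12, 1.75, 1.77 and 1.52 in KO controls. Kif2c stood at 3.62, 2.0, 1.51 and 1.46 CPM in WT and at 1.31, 0.97, 0.97 and 1.33 in KO controls. WT controls 1 and 2 were thus the highest of the 8 control lungs for all 3 genes, while WT controls 3 and 4 lay close to the KO controls. Single 14-day lungs reached similar levels, with Cenpf at up to 17.6 CPM in KO and 16.9 in WT, and Aurkb at up to 3.74 CPM in KO. The order did not hold for each mitotic gene, as Cenpl and Kif18a were highest in WT control 4 among the WT controls. Birc5 (4.34, 3.09, 1.70 and 2.11 CPM) and the motor Cenpe (10.5, 8.73, 4.91 and 5.99 CPM) showed the same order among WT controls.

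**Figure D5:**
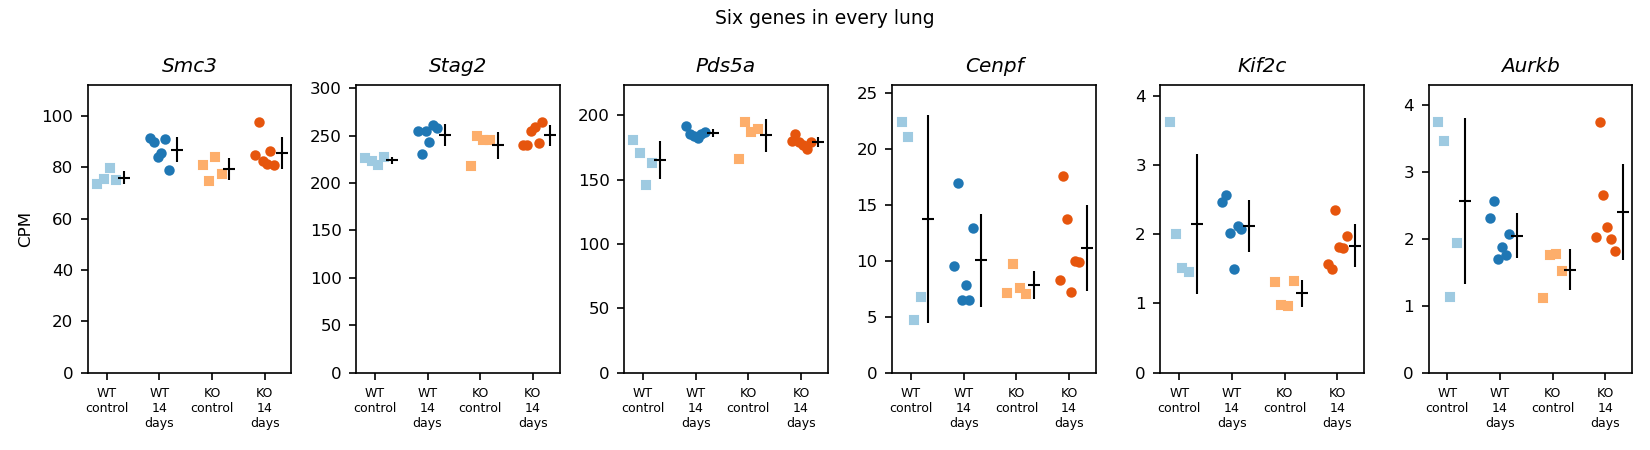
CPM of Smc3, Stag2 and Pds5a (the genes called in WT lungs) and of Cenpf, Kif2c and Aurkb (chosen after their values were seen) in each of the 20 lungs, with the mean ± s.d. of each group. WT control replicates 1 and 2 are the highest controls for Cenpf, Kif2c and Aurkb.

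Leaving out WT controls 1 and 2 together, a choice made after seeing these values, moved most of the list's estimates above 0. Of the 37 genes then tested in WT lungs, 8 estimates were below 0 and the median log2 fold change was 0.16, with 0 called by edgeR, 4 at an unadjusted p under 0.05 (10.8%, against 7.66% of all genes), and 0 of all genes called. Cenpf went from -0.49 (SE 0.35) to 0.78 (SE 0.37), Aurkb from -0.36 to 0.38 and Kif2c from -0.069 to 0.51. Smc3, Stag2 and Pds5a held their direction, at 0.16, 0.16 and 0.27, but with edgeR FDR values of 0.646, 0.579 and 0.483. Between KO and WT controls Kif2c went from -0.95 to -0.38 and Aurkb from -0.76 to -0.019, and Cenpf turned from -0.84 to 0.43. Cenpl went from -0.87 (SE 0.38) to -1.16 (SE 0.45) and Cenpa went from -0.55 to -0.38. Between 14-day and control WT lungs, Cenpf, Aurkb and Kif2c thus turned above 0 without those 2 libraries. The 2 were picked as the highest controls for these genes, so leaving them out had to raise the estimates. The change of sign therefore does not decide their direction. In the same fit Cenpl (-0.51), Cenpo (-0.34), Cenpn (-0.30), Kif18a (-0.29), Cdc20 (-0.21) and Spc24 (-0.21) were among the estimates below 0.

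Other cell cycle genes of the lung gave few calls. In WT mice, where 2.33% of all genes were called, the cohesin loader Nipbl was higher at 14 days (log2 fold change 0.15, SE 0.039), as 1 of 8 genes tested in its list. Of 30 replication genes tested 3 were called, Chaf1a (-0.88), Mcm5 (-0.63) and Mcm2 (-0.57), all lower. Of 26 mitotic cyclins, kinases and motors tested, 23 estimates were below 0 in WT mice, with 0 called and 1 at an unadjusted p under 0.05 by edgeR. In KO mice 22 of the 26 were above 0, with 1 called higher, the phosphatase Cdc25b (0.40), where 1.05% of all genes were called. The interaction of tumor and genotype called 0 of the 26 by edgeR, with 3 at an unadjusted p under 0.05.

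Between control lungs, 3 of the same 26 genes were called, all lower in KO, namely Foxm1 (-1.12), Pkmyt1 (-1.32) and Cdk1 (-1.41), where 0.973% of all genes were called. Without WT controls 1 and 2 none of these 3 passed, at -0.64, -1.13 and -0.81 (edgeR FDR 0.743, 0.672 and 0.760). The fit then held fewer WT controls, and the omitted 2 were picked as high in mitotic genes. The loss therefore decides nothing about these 3 genes. The WT calls of Nipbl, Chaf1a, Mcm5 and Mcm2 ended too, at 0.16, -0.57, -0.33 and -0.037, as edgeR then called 0 of all genes between WT 14-day and control lungs.

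Markers of other cells also moved between lung groups. Mature neutrophil markers were above 0 at 14 days in 6 of 6 genes in either genotype, with 3 called in WT and 2 in KO mice. Their sum ranged from 54.6 to 90.4 CPM in WT controls and from 99.8 to 341 in WT 14-day lungs, without overlap, and from 55.9 to 105 CPM in KO controls and from 38.7 to 378 in KO 14-day lungs, with overlap. Fibroblast markers were below 0 in 4 of 5 genes in WT mice, with 1 called (Col1a1, -0.73), and summed to 1741 to 2286 CPM in WT controls and 1502 to 2031 in WT 14-day lungs. Of the lung epithelial markers 4 of 5 were below 0 in WT mice, with 1 called (Sftpb, -0.26), and their sums overlapped at 15036 to 17101 CPM in WT controls and 15457 to 16494 in WT 14-day lungs. B cell markers were below 0 in 5 of 5 genes in WT mice at 14 days, with 0 called and a median of -0.58, and above 0 in 5 of 5 in KO mice, with 0 called and a median of 0.35. T cell and NK markers were each below 0 in 6 of 6 genes in WT mice, with 0 called, and in KO mice they were above 0 in 5 of 6 and 4 of 6, with 0 called. The part of these cells in the values of the cohesin and mitotic genes was not tested.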

How the data were processed

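Lungs and tumors were profiled by stranded poly(A) mRNA-seq, paired-end. Per the labels, reads were processed with STAR and RSEM on mm10, and the authors deposited a table of RSEM expected counts and a table of FPKM, both by gene. Counts were rounded to whole numbers and tested in R 4.3.3 with edgeR 4.0.16 (TMM scaling, filterByExpr, quasi-likelihood test, Benjamini-Hochberg adjustment over all genes tested): tumors at FDR 0.05, all 20 lungs with a mean per group at FDR 0.25, and all 32 samples for tumor against lung at FDR 0.05. SE is the log2 fold change over the root of its F statistic. CPM are TMM-scaled within a tissue, except for overlap between tumor and lung, where they are scaled over all 32 samples; FPKM describe levels of genes and tissues and entered no test. Descriptions used Python 3.11.15. Scripts were tested on simulated data.

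The 43 genes and the other lists were chosen with earlier results of these data known. Named genes are the 4 called genes with the smallest p in each role, or the 1 with the smallest p where none was called in tumors, and the 2 called genes of each other list with the smallest p; of these only some are printed. Genes outside this rule were chosen after their values were seen. Replicates are separate tissues by their labels, which name no animals, so p-values measure the spread between these samples. In no comparison did every same-numbered pair correlate over 0.1, so numbers were not used as pairs. Alternatives were DESeq2 1.42.0, other filters, thresholds and scaling, the replicate block, GC offsets and leaving out each replicate. Depth limits the mitotic genes of lung, where Kif2c and Aurkb had 5 to 31 counts per library.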

Additional observations from a re-analysis of the deposited data

Results flagged for a closer look

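A total of 52 groups of 4 or 6 samples were examined for a sample standing apart from its group, and 4 did so, where chance alone gives about 1 in 20. Of the tumors of KO hosts, replicate 2 had the lowest Ttk, at 10.8 CPM, with the others at 14.6 to 16.8. Smc3 in KO 14-day lung replicate 2 was 97.7 CPM, with the others at 80.9 to 86.5. Stag2 in KO control lung replicate 1 was 218 CPM, with the others at 245 to 250. The sum over centromere genes in WT control lung replicate 2 was 79.3 CPM, with the others at 66.8 to 68.5.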

How the results depend on the processing

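None of the genes named by rule changed direction under any alternative, though Cenpf, Aurkb and Kif2c, named after their values were seen, did in WT lungs without WT controls 1 and 2. Over all alternatives the named genes kept their side of the threshold 954 times, lost the call 63 times, of which 44 were in WT lungs and 13 over both genotypes (Smc3, Stag2 and Pds5a), and gained it 2 times (Cenpk and Rad21 in tumors). The call of 0 genes in tumors by host became 4 at an FDR of 0.25, where Cenpk, Cenpt, Rad21 and Stag1 passed, and ranged from 0 to 1 when each replicate was left out. The counts in this paragraph stand without the share of all genes called in the same setting. They describe how the calls moved and are not read as results about these genes. The 3 genes called in WT lungs became 0 without a filter on low counts, with GC offsets, with GC offsets and the replicate block, at an FDR of 0.05, with a 1.5-fold limit, and without WT controls 1 and 2 together. They became 1 when only the compared groups were fitted, and ranged from 0 to 3 when each replicate was left out. The 2 genes called over both genotypes became 1 without a filter, with the replicate block and with GC offsets and the block. They became 0 with GC offsets, at an FDR of 0.05, with a 1.5-fold limit and without WT controls 1 and 2, and ranged from 1 to 3 over replicates left out. For control lungs by genotype, 0 became 1 with DESeq2 and 2 with only the compared groups (Cenpa and Cenpl), and ranged from 0 to 1. With at least 10 counts in every sample, 20 genes were called between tumor and lung in either host, since only 24 of the 43 were then tested. Apart from that filter the cause was not tested. The replicate block gave 2 genes in WT lungs and 0 in tumors. Same-numbered samples correlated between -0.277 and 0.232. For KO tumors and KO lungs all 6 correlations were above 0 (0.037 to 0.160) and 4 of 6 tumors correlated best with the lung of their own number, a hint from the data only. Of the 43 genes, the block gave 38 called there against 40 without it, and 40 against 42 in WT hosts. GC offsets and the omission of both WT controls were chosen after seeing the data. Depth limits what can be seen of the mitotic genes in lung.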
